A study of Mus musculus with 16 samples.

Results

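Lipid-associated macrophages are represented here by 10 marker genes, Trem2, Gpnmb, Cd9, Spp1, Fabp5, Itgax, Lpl, Mmp12, Lgals3 and Lgals1. They were taken by symbol from a table of 23420 genes, and all 10 were found. RNA was sequenced from the whole liver of 16 male C57BL/6J wild-type mice. All of them received a high-fat diet with 45% of its energy as fat, either alone (HFD) or with 0.04% fenretinide, a synthetic retinoid (FEN-HFD). Each diet was given to 4 mice for 7 days and to 4 other mice for 20 weeks. The age of the mice was not given in the sources used here, lean control livers were not analysed here, and each mouse has 1 library. The members were measured in unsorted tissue, in which fewer macrophages and less RNA per macrophage cannot be told apart.

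In a liver that stores excess fat, macrophages that derive from blood monocytes and settle near lipid-laden or dying hepatocytes can take on a lipid-handling state. TREM2, a receptor for lipids and cell debris, is the best known mark of this state, which also includes a lysosomal glycoprotein (GPNMB), a tetraspanin (CD9), an integrin (CD11c, encoded by Itgax), a secreted phosphoprotein (osteopontin, encoded by Spp1), a macrophage elastase (encoded by Mmp12), galectins, and proteins that bind or release fatty acids. None of the 10 is made by such cells alone. Spp1 is also a gene of bile duct cells, Lpl of adipocytes, Lgals1 of stellate and other mesenchymal cells, and Cd9 is widely expressed.

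Libraries held between 19218230 and 32546829 counts. CPM is a gene's level as counts per 1000000 counts of its library, with libraries scaled by TMM over all 16, and group values are the mean ± SD of 4 mice. Alb, the hepatocyte marker, lay between 28150 and 54167 CPM and all 14 general macrophage markers were detected in all 16 libraries. Of these libraries 3 stood apart. FEN-HFD 20-week mouse 29 had 53.1% of its counts on the ribosomal RNA precursor Rn45s, against at most 1.46% elsewhere, which left it the shallowest library for other genes, and the 14 general macrophage genes summed to 1507 CPM against 543 to 646 CPM in the other mice of its group. HFD 7-day mouse 143 had a macrophage sum of 1503 CPM against 537 to 654 CPM. Mice 29 and 143 also had the highest sums of their groups for other leukocyte genes. These were 63.9 and 54.8 CPM for monocyte genes, 23.3 and 22.8 CPM for dendritic cell genes and 19.7 and 12.4 CPM for lymphocyte genes. HFD 20-week mouse 45 held 79 counts of Adipoq, 61 of Plin1, 42 of Lep and 13 of Retn, all defining adipocyte genes, of which no other library had more than 3 counts. Results of the members that lean on these mice are given with and without them.

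Livers of mice on the HFD for 20 weeks had the highest group mean for 8 of the 10 members. Compared with HFD at 7 days, 3 members rose, Lgals1 by 10.9-fold, Gpnmb by 23.8-fold and Mmp12 by 15.8-fold, and none fell. The filter on low counts kept Gpnmb in this test only through the HFD 20-week mice, in which it was high. Among all 13255 genes tested, 4.78% were higher and 2.73% lower. In 4 of the 10 members every 20-week mouse exceeded every 7-day mouse, which was so for 9.63% of all genes. With fenretinide for 20 weeks, 1 member of 10, Lgals1, fell to 0.348 times its level on the HFD alone and none rose, while 1.09% of 13010 genes were lower and 0.769% higher. The median log2 fold change of the members was -0.54 with fenretinide at 20 weeks and 0.93 with 20 weeks on the HFD, beside 0.01 and -0.01 over all genes tested. Without mouse 29 no member was called with fenretinide at 20 weeks (median -0.97), beside 3.21% of all genes in either direction. Without mouse 143 only Lgals1 was called with 20 weeks on the HFD (median 1.22), beside 7.03% of all genes. A member was called where edgeR's quasi-likelihood test gave a p of at most 0.05 after Benjamini-Hochberg adjustment over all genes tested. The 20-week and 7-day mice were separate sets, so that time on the diet, age and set cannot be told apart.

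**Figure D1:**
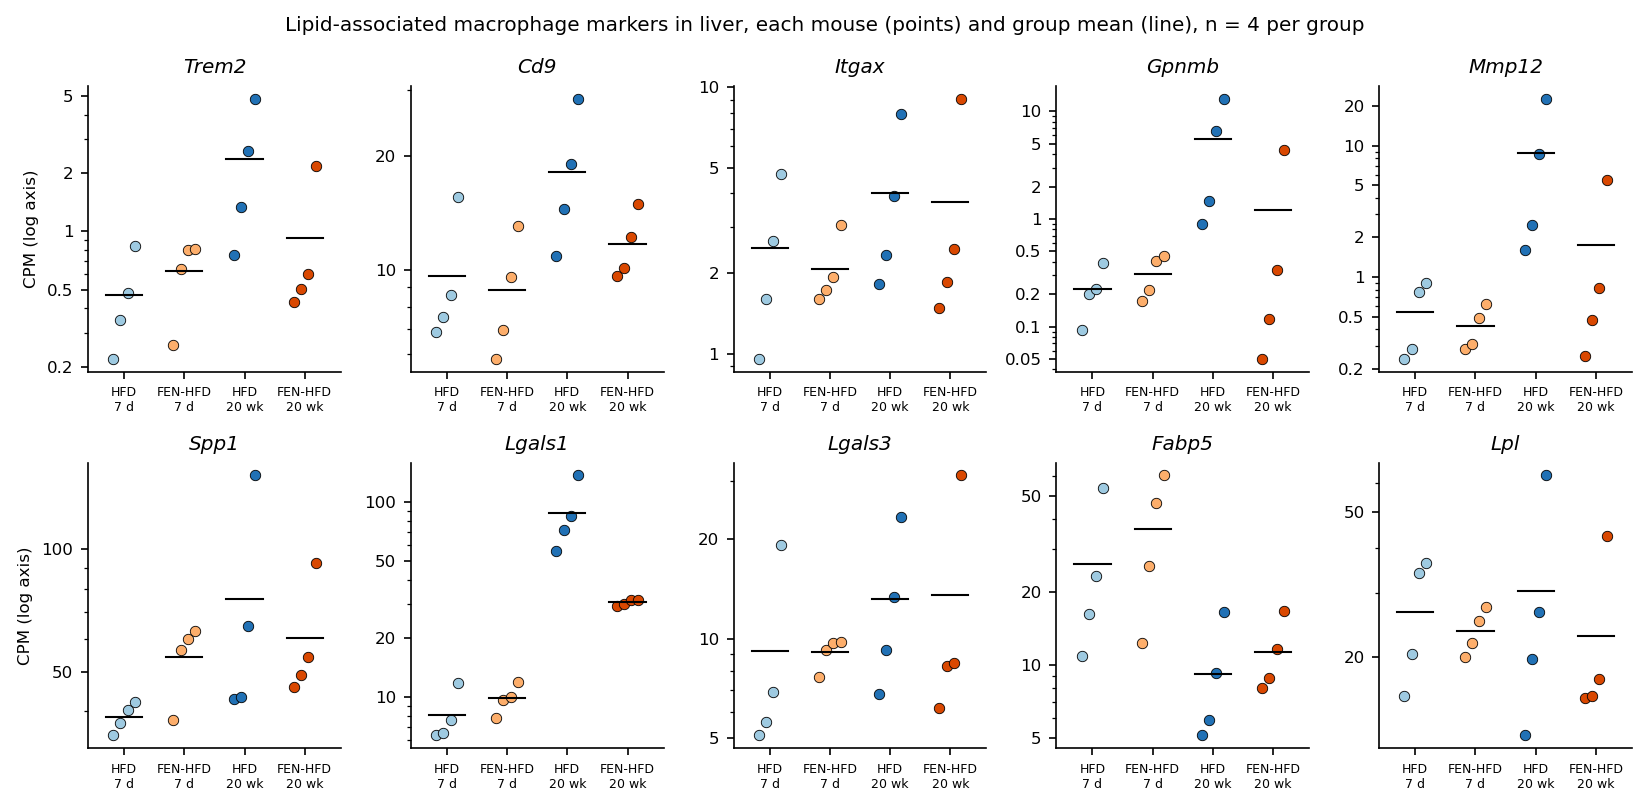
Level of each member in each mouse (points, CPM on a log axis) with the group mean (line), 4 mice per group, on HFD or FEN-HFD for 7 days or 20 weeks. The 4 HFD 20-week mice lie above all 12 other mice for Lgals1, whose FEN-HFD 20-week mice lie together between 29.4 and 31.6 CPM, and 1 FEN-HFD 20-week mouse is far above the other 3 for Trem2, Gpnmb, Mmp12, Itgax, Lgals3 and Lpl.

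Among the surface receptors, Trem2 lies at chr17:48346401-48354147 (plus strand, GRCm38, GENCODE M21). On the HFD its level was 0.219, 0.350, 0.839 and 0.478 CPM at 7 days and 2.60, 4.84, 0.753 and 1.33 CPM at 20 weeks. In FEN-HFD mice it was 0.257, 0.636, 0.806 and 0.810 CPM at 7 days and 0.599, 0.431, 0.503 and 2.18 CPM at 20 weeks. Most 20-week HFD mice were above every 7-day mouse, but mouse 33 lay within the 7-day range, and among FEN-HFD 20-week mice the exception was mouse 29, which had more Trem2 than the other 3. Trem2 counts were low, from 7 to 26 per library at 7 days and from 10 to 21 on FEN-HFD at 20 weeks. The rise on the HFD between 7 days and 20 weeks had a log2 fold change of 2.33 ± 0.62 (SE) and missed the threshold (edgeR's quasi-likelihood test, Benjamini-Hochberg adjusted p = 0.0559). It passed in 3 of 15 alternatives, among them DESeq2 (adjusted p = 0.00211) and the edgeR fit of all 16 libraries (adjusted p = 0.0227), and missed the threshold in the other 12. With 1 mouse left out, edgeR's adjusted p ran from 0.0278 to 0.131. With fenretinide at 20 weeks the log2 fold change was -1.54 ± 0.69 (SE, edgeR adjusted p = 0.275), and without mouse 29 it was -2.21 (edgeR adjusted p = 0.109).

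Cd9, a tetraspanin of the cell surface (chr6:125460266-125494791, minus strand), was more abundant. Its level was 19.02, 28.3, 10.9 and 14.5 CPM on the HFD at 20 weeks and 12.2, 9.63, 10.2 and 14.98 CPM with fenretinide. At 7 days it lay between 6.85 and 15.6 CPM on the HFD and between 5.82 and 13.1 CPM on FEN-HFD. HFD 20-week mice 25 and 28 were above all 14 other mice, and the remaining groups overlapped. The difference with fenretinide at 20 weeks was -0.65 ± 0.28 (log2, SE) with an adjusted p of 0.264 by edgeR. That between 20 weeks and 7 days on the HFD was 0.90 ± 0.36 (edgeR adjusted p = 0.165), which passed by DESeq2 (adjusted p = 0.0473) and in none of the other 15 alternatives. Cd9 overlaps the genes Gm28809 and Gm26728 on the opposite strand, and whether counting used strand was not given in the sources used here.

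Itgax, which encodes the integrin CD11c of dendritic cells and of some macrophages, reached its highest level in the same 2 mice that stood out for several members. It was 3.92, 7.94, 1.83 and 2.34 CPM on the HFD at 20 weeks and 2.47, 1.49, 1.86 and 9.05 CPM with fenretinide. At 7 days it ranged from 0.956 to 4.74 CPM. No comparison of Itgax passed the test, and its direction with fenretinide at 20 weeks rested on single mice. The log2 fold change was -0.21 over all 8 mice, -1.05 without mouse 29 and 0.38 without HFD mouse 28.

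Gpnmb, a lysosomal and membrane glycoprotein (chr6:49036546-49070929, plus strand), was close to the limit of detection at 7 days. It was 0.0941, 0.223, 0.387 and 0.199 CPM on the HFD, from 3 to 12 counts, and 0.171, 0.449, 0.217 and 0.405 CPM on FEN-HFD, from 6 to 12 counts. At 20 weeks the HFD mice had 6.53, 13.0, 1.47 and 0.889 CPM, from 22 to 420 counts. The 4 HFD 20-week mice were all above the 7-day mice. They also differed among themselves more than for any other member, with a highest level 14.6 times the lowest. In FEN-HFD 20-week mice 21, 22, 24 and 29 the level was 0.337, 0.117, 0.0503 and 4.37 CPM, from 9, 3, 1 and 42 counts. In 3 of these 4 mice Gpnmb lay within or under the 7-day range, and in mouse 29 it was higher than in 2 HFD mice.

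Mmp12, the macrophage elastase (chr9:7344381-7369499, plus strand), followed the same mice. It was 0.282, 0.764, 0.903 and 0.239 CPM on the HFD at 7 days and 8.64, 22.6, 2.49 and 1.62 CPM at 20 weeks. In FEN-HFD mice it was 0.629, 0.487, 0.310 and 0.283 CPM at 7 days and 0.823, 0.470, 0.251 and 5.51 CPM at 20 weeks. Again the 4 HFD mice of 20 weeks were all above those of 7 days, and mouse 29 was the only FEN-HFD 20-week mouse above the 7-day range. Mmp12 overlaps Mmp1b on the opposite strand, and reads of both cannot be told apart without the strand setting.

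Gpnmb and Mmp12 rose between 7 days and 20 weeks on the HFD, with log2 fold changes of 4.57 ± 0.99 (SE, edgeR adjusted p = 0.0317) and 3.98 ± 0.96 (SE, edgeR adjusted p = 0.0476). Gpnmb was left out by the filter on low counts in both comparisons without the HFD 20-week mice. It thus entered this test, and that of fenretinide at 20 weeks, only through the group in which it was high. Neither the call of Gpnmb nor that of Mmp12 was firm. Both were lost with an adjusted p between 0.0736 and 0.123 when any 1 of the 4 HFD 7-day mice was left out, mouse 143 included (0.0845 for Gpnmb and 0.0993 for Mmp12 without it), and both were lost without HFD 20-week mouse 25 (0.0713 and 0.0986). That of Mmp12 was also lost without mouse 28 (0.0619). On FEN-HFD at 20 weeks, relative to the HFD, the log2 fold changes were -2.57 ± 1.33 for Gpnmb and -2.61 ± 1.15 for Mmp12 (SE, edgeR adjusted p = 0.348 and 0.275). Leaving out mouse 29 took them to -4.91 and -4.04 (edgeR adjusted p = 0.123 and 0.151). Leaving out HFD mouse 28 took them to -1.61 and -1.49.

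The sequences before the start sites of Trem2, Gpnmb and Mmp12 are shown as examples. These members were highest in HFD 20-week mouse 28, as were Cd9, Spp1 and Lgals1, so this does not set them apart. Of the 10 members 7 are in the RefSeq promoter table (GRCm38.p6). Each line holds the 250 bases before the start, 5′ to 3′, with matches to 4 searched motifs in capitals. These were an E-box (CACGTG), a loose AP-1-like pattern (TGANTCA, where N is any base), a PU box (GAGGAA) and a nuclear receptor half-site (AGGTCA), on both strands.
Trem2, chr17:48346151-48346400, plus strand: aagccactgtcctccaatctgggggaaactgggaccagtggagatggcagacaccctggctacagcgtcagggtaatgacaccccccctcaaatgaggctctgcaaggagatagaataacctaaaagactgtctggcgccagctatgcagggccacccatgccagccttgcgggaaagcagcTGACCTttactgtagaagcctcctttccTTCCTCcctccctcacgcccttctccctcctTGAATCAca
Gpnmb, chr6:49036268-49036517, plus strand: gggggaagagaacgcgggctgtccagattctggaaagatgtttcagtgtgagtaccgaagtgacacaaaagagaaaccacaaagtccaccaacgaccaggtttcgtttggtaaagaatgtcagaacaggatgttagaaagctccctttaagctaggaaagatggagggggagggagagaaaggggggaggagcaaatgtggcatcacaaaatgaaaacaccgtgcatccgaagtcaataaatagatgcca
Mmp12, chr9:7347124-7347373, plus strand: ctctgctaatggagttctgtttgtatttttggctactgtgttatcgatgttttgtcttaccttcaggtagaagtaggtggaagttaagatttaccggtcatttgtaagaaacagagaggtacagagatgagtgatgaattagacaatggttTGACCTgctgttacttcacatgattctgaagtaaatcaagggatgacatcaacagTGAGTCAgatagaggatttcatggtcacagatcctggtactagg
Trem2 had an AP-1-like match (TGAATCA) starting 9 bases before the start site, a PU box at 40 bases and a half-site at 68 bases, the last 2 on the minus strand. Mmp12 had an AP-1-like match (TGAGTCA) at 44 bases and a half-site on the minus strand at 99 bases. A further RefSeq start of Mmp12 lies upstream, at 7344397, and held a PU box only. Gpnmb held none of the 4 motifs in this window. Over all 32851 start sites in the table, 6.75% held the AP-1-like letters with any middle base, 23.3% the PU box, 14% the half-site and 6.02% the E-box. A match of letters is a description and no binding was measured here.

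The galectins, sugar-binding proteins that macrophages and mesenchymal cells secrete, behaved differently from one another. Lgals1, galectin-1 (chr15:78926725-78930465, plus strand), was 7.62, 6.52, 6.35 and 11.7 CPM on the HFD at 7 days and 10.03, 7.79, 9.60 and 11.9 CPM on FEN-HFD. At 20 weeks it was 85.5, 137, 71.9 and 56.3 CPM on the HFD and 30.1, 29.4, 31.6 and 31.3 CPM on FEN-HFD. The order of the groups was thus HFD 20 weeks, FEN-HFD 20 weeks and then both 7-day groups, which overlapped. The 20-week groups overlapped neither with each other nor with those of 7 days, and the FEN-HFD 20-week mice, mouse 29 among them, were within 1.07-fold of each other. Counts were high, from 197 to 4427 per library.

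Between 7 days and 20 weeks Lgals1 rose in both diets, by a log2 fold change of 3.44 ± 0.33 on the HFD (SE, edgeR adjusted p = 0.00139) and of 1.63 ± 0.12 on FEN-HFD (SE, edgeR adjusted p = 0.000176). Both calls held in all 16 alternatives run for each. With fenretinide at 20 weeks Lgals1 was 30.6 ± 1.02 CPM against 87.8 ± 35.1 CPM on the HFD alone (SD, n = 4), a log2 fold change of -1.52 ± 0.24 (SE, edgeR adjusted p = 0.0195). All 4 FEN-HFD mice were below all 4 HFD mice, as was the case in this direction for 6.8% of all genes. The edgeR call was lost at adjusted p-values just over the threshold without FEN-HFD mouse 29 (0.0518), 22 (0.0606), 24 (0.0657) or 21 (0.0807) or HFD mouse 25 (0.0687), with log2 fold changes between -1.54 and -1.50. It was also lost in the test for a change of over 1.5-fold (0.149), while DESeq2 (1.18e-07), limma-voom (0.0027) and the edgeR fit of all 16 libraries (0.0024) kept it. Lgals1 was lowest of its group in HFD mouse 45, the mouse with adipocyte genes.

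Lgals3, galectin-3 (chr14:47367751-47386160, plus strand), an abundant protein of activated macrophages, showed no such order. It was 5.11, 19.2, 5.61 and 6.89 CPM on the HFD at 7 days and 9.23, 7.67, 9.70 and 9.75 CPM on FEN-HFD. At 20 weeks it was 13.3, 23.3, 9.26 and 6.83 CPM on the HFD and 8.46, 6.19, 8.29 and 31.1 CPM on FEN-HFD. Its 3 highest values were those of mice 29, 28 and 143, and 29 and 143 also had the largest macrophage sums. The log2 fold change with fenretinide at 20 weeks was -0.02 over all mice, -0.79 without mouse 29 and 0.41 without HFD mouse 28. That between 20 weeks and 7 days on the HFD was 0.51, and 1.16 without mouse 143 (edgeR adjusted p = 0.146).

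Spp1 encodes osteopontin, a secreted protein of macrophages and bile duct cells (chr5:104435118-104441050, plus strand). On the HFD it was 40.2, 34.8, 42.1 and 37.3 CPM at 7 days and 64.5, 152, 43.3 and 42.7 CPM at 20 weeks. FEN-HFD mice had 56.6, 60.05, 62.7 and 37.9 CPM at 7 days and 54.2, 49.1, 45.7 and 92.3 CPM at 20 weeks. All HFD 20-week mice exceeded all HFD 7-day mice, 2 of them by little, and the log2 fold change of 0.96 ± 0.41 missed the threshold (SE, edgeR adjusted p = 0.191), falling to 0.36 without mouse 28. At 7 days 3 of 4 FEN-HFD mice were above all HFD mice, a log2 fold change of 0.50 ± 0.15 (SE, edgeR adjusted p = 0.551). The 8 bile duct markers summed to between 33.2 and 52.8 CPM in all 16 libraries, with Krt19 at 6.90 CPM in HFD 7-day mouse 143 and at most 2.38 CPM elsewhere. Their part in the Spp1 values was not tested. Spp1 overlaps the predicted gene Gm42793 on its own strand.

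Of the genes that handle fatty acids, Fabp5, an intracellular fatty acid-binding protein (chr3:10012548-10016607, plus strand), had lower group means at 20 weeks than at 7 days on both diets. It was 23.2, 16.2, 53.8 and 10.8 CPM on the HFD and 25.5, 60.6, 46.6 and 12.3 CPM on FEN-HFD at 7 days. At 20 weeks it was 5.89, 16.6, 5.11 and 9.21 CPM on the HFD and 11.6, 8.03, 8.79 and 16.7 CPM on FEN-HFD. The 7-day mice were spread over about 5-fold on either diet, so the lower 20-week ranges overlapped with them. The log2 fold changes were -1.51 ± 0.58 on the HFD (SE, edgeR adjusted p = 0.162) and -1.72 ± 0.47 on FEN-HFD (SE, edgeR adjusted p = 0.19), the latter called by DESeq2 (adjusted p = 0.0422) and, without FEN-HFD 7-day mouse 66, by edgeR (adjusted p = 0.0412).

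Lpl, the lipase that releases fatty acids from circulating triglyceride (chr8:68880491-68907448, plus strand), was 20.4, 34.0, 36.2 and 15.7 CPM on the HFD and 27.4, 25.2, 21.9 and 20.1 CPM on FEN-HFD at 7 days. At 20 weeks it was 19.8, 26.6, 12.2 and 63.0 CPM on the HFD and 17.5, 15.7, 15.5 and 43.1 CPM on FEN-HFD. The 2 highest values were those of HFD mouse 45, with its adipocyte genes, and of FEN-HFD mouse 29. Of the 5 adipocyte genes listed, Adipoq, Plin1 and Retn had 0 counts in mouse 29, and Lep and Cfd did not. The 5 summed to 144.6 CPM in mouse 29, the highest sum of all 16 libraries. Without mouse 45 the log2 fold change with fenretinide at 20 weeks moved from -0.44 to 0.20, and that between 20 weeks and 7 days on the HFD from 0.17 to -0.45. Without mouse 29, Lpl was lower in FEN-HFD mice at 20 weeks than at 7 days, with a log2 fold change of -0.56 (edgeR adjusted p = 0.0281), which with mouse 29 was -0.09. The part of the adipocyte genes in these values was not tested.

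**Figure D2:**
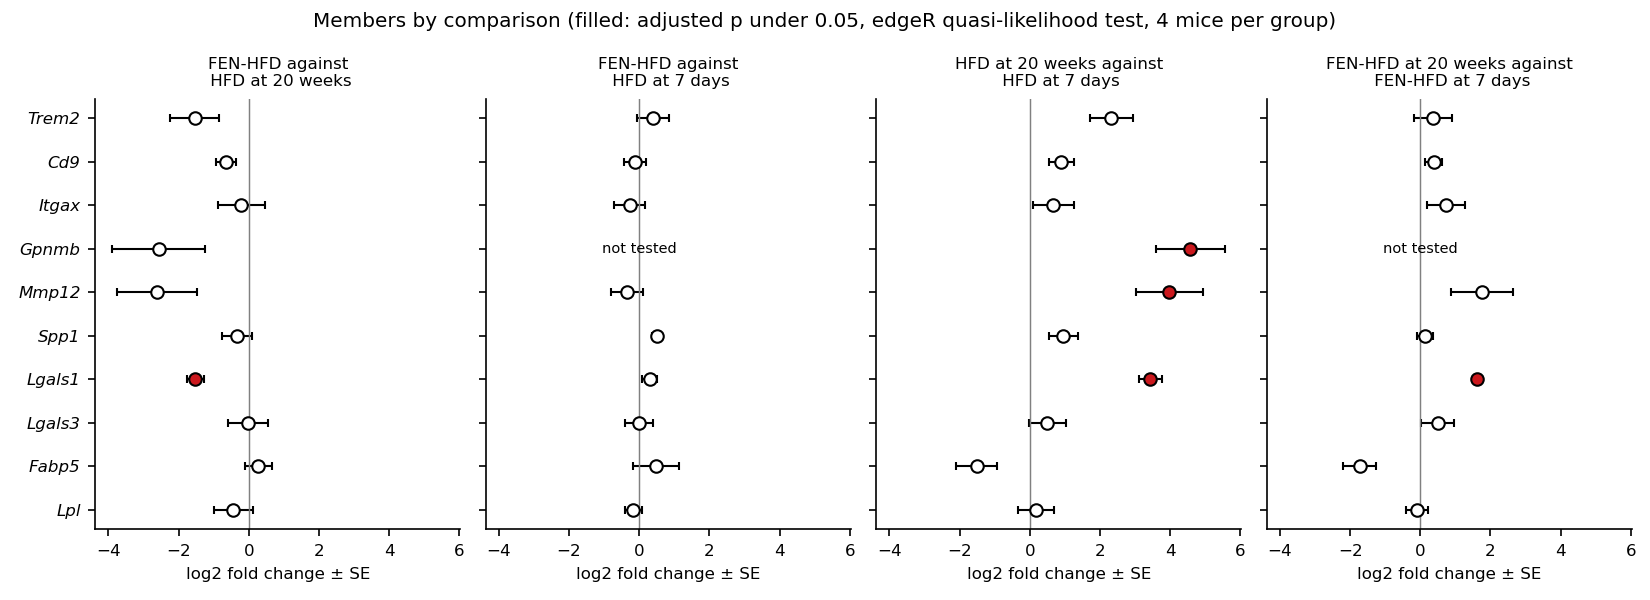
Log2 fold change of each member (± SE) in 4 comparisons of 4 mice against 4, with members called by edgeR's quasi-likelihood test filled and Gpnmb not tested in 2 of them for low counts. Lgals1 is called in 3 comparisons, and Gpnmb and Mmp12 have the largest changes and the widest errors.

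After 7 days fenretinide moved none of the members past the threshold. Of 9 members tested, with Gpnmb left out by the filter on low counts, edgeR called 0, as did DESeq2 and limma-voom, and 1, Spp1, had an unadjusted p under 0.05 by edgeR. The background was as low, 0.0988% of 13157 genes in either direction. The log2 fold changes of the 9 lay between -0.35 for Mmp12 and 0.50 for Spp1, and those of Lgals3 and Itgax turned from -0.01 and -0.27 to 0.64 and 0.23 without HFD mouse 143. In FEN-HFD mice, 1 of 9 members tested, Lgals1, was higher at 20 weeks than at 7 days and none was lower, beside 0.849% and 0.332% of 12949 genes. Lgals1 was also the 1 member of 10 with no overlap, beside 4.09% of genes. Without mouse 29 the log2 fold change of Trem2 in that comparison went from 0.36 to -0.28 and that of Mmp12 from 1.76 to 0.28.

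The difference between the 20-week and the 7-day effect of fenretinide was tested over all 16 libraries. By edgeR 0 of 10 members passed, 2 of them (Lgals1 and Trem2, both negative) had an unadjusted p under 0.05, and 0.0299% of 13387 genes passed in either direction. Trem2, at an unadjusted p of 0.0455 by edgeR, ranked 1065 of the 13387 genes. For Lgals1 the difference was -1.81 ± 0.34 (log2, SE) with an adjusted p of 0.0781 by edgeR, and DESeq2 (adjusted p = 0.000169) and limma-voom (adjusted p = 0.016) called it. It passed in edgeR without HFD 7-day mouse 146 (adjusted p = 0.0344) or HFD 20-week mouse 45 (adjusted p = 0.0203). For Trem2 it was -1.94 ± 0.89 (SE, edgeR adjusted p = 0.571). The difference was negative for 9 of the 10 members, with Lgals3 at only -0.005 and Itgax being the exception at 0.06, and for all 10 without mice 29 and 143. Gpnmb is among them, although the filter on low counts left it out of both comparisons without the HFD 20-week mice, in which it was high. Its negative sign here therefore carries no weight of its own. Without mice 29 and 143 the difference was also negative for 6 of 6 monocyte, 7 of 8 dendritic cell and 9 of 10 stellate cell genes. It was negative for 20 of 23 further genes linked to lipid-associated macrophages and for 9 of 14 general macrophage genes. It was negative for 2 of 10 Kupffer cell and 4 of 8 endothelial genes, and the median over all genes was -0.006. With all 16 libraries the difference was positive for all 14 general macrophage genes.

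The mouse with the most of one member often had the most of others. HFD mouse 28 was highest in its group for 9 of 10 members, Lpl excepted, and FEN-HFD mouse 29 for 9 of 10, Lgals1 excepted. At 7 days the highest levels were spread, with HFD mouse 144 first for 6 members and no FEN-HFD mouse first for more than 4. Mouse 28 had the largest macrophage sum of its group at 618 CPM, which lay within the range of the other groups, and mouse 29 had 1507 CPM, close to the 1503 CPM of HFD 7-day mouse 143.

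**Figure D3:**
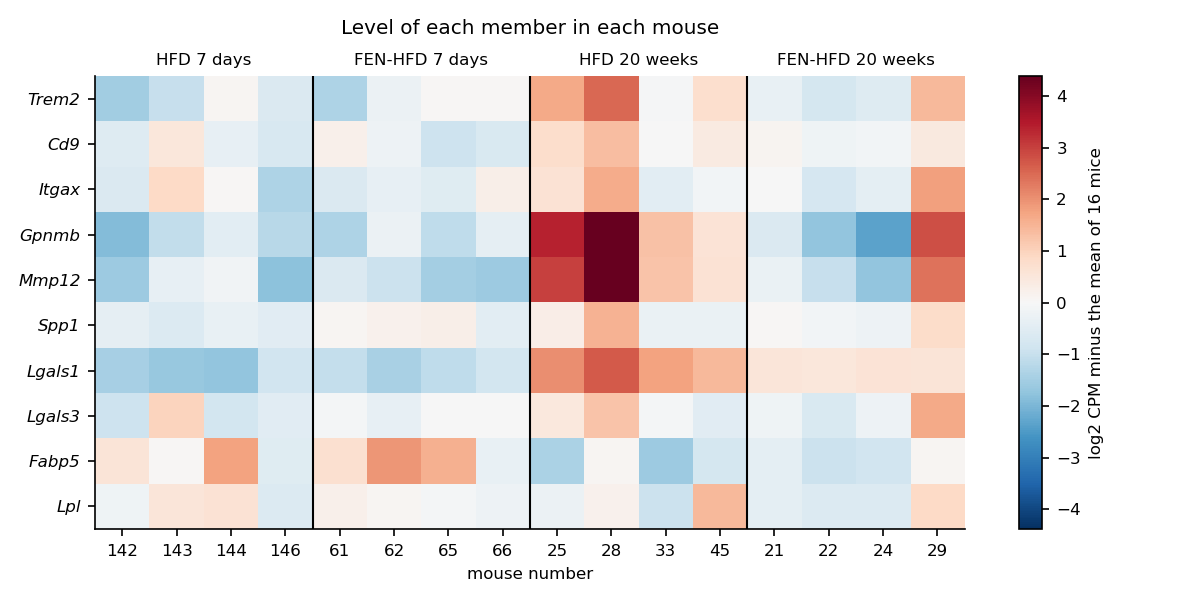
Level of each member in each of the 16 mice, as log2 CPM minus its mean over all mice (red above, blue below), with mice grouped by diet and time. HFD 20-week mouse 28 is red for all members but Fabp5 and Lpl, which are near their means, mouse 29 stands out among FEN-HFD 20-week mice, and Lgals1 separates both 20-week groups from the 7-day groups.

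The rise of some members on the HFD was not matched by general macrophage markers, such as Adgre1, Cd68 and Csf1r. Of 14 such genes, edgeR called 0 between 20 weeks and 7 days on the HFD, with 13 negative log2 fold changes, a median of -0.73 and 7 lower at an unadjusted p under 0.05. For fenretinide at 20 weeks it called 0, with 14 positive values, a median of 0.63 and 2 higher at an unadjusted p under 0.05. Leaving out mouse 143 or mouse 29 took these medians to -0.27 and 0.12, and Csf1r was then called lower at 20 weeks. An unadjusted p under 0.05 was common over all genes. By edgeR Spp1, at an unadjusted p of 0.0471 with time on the HFD, ranked 3273 of 13255 genes. Cd9, at an unadjusted p of 0.0480 by edgeR with fenretinide at 20 weeks, ranked 2361 of 13010. Counts at an unadjusted p in the gene lists below stand beside the same background. The summed level of the 14 genes was 456 to 618 CPM on the HFD at 20 weeks, 543 to 1507 CPM on FEN-HFD at 20 weeks, and 537 to 1503 and 592 to 752 CPM on HFD and FEN-HFD at 7 days.

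Divided by that sum, members were given as CPM per 1000 CPM of the 14 genes. Trem2 was then 0.233 to 1.33 on the HFD at 7 days, 1.49 to 7.83 on the HFD at 20 weeks and 0.783 to 1.45 on FEN-HFD at 20 weeks. The 20-week HFD mice no longer overlapped with either group, although the gap to FEN-HFD was small. Cd9 was 10.4 to 13.95, 21.6 to 45.9 and 9.94 to 18.9, and Lgals1 was 4.34 to 17.97, 123 to 222 and 20.8 to 58.1, in the same order. Gpnmb was 0.148 to 0.614, 1.95 to 21.1 and 0.0925 to 2.90, so that mouse 29 still overlapped with the HFD mice. On this scale 7 of 10 members had every HFD 20-week mouse above every HFD 7-day mouse, beside 19.2% of all genes divided in the same way, and 3 of 10, Trem2, Cd9 and Lgals1, had every FEN-HFD mouse below every HFD mouse at 20 weeks, beside 15.6%. In FEN-HFD mice 1 of 10, Lgals1, was higher at 20 weeks without overlap, beside 1.02%. No test was made on these ratios.

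**Figure D4:**
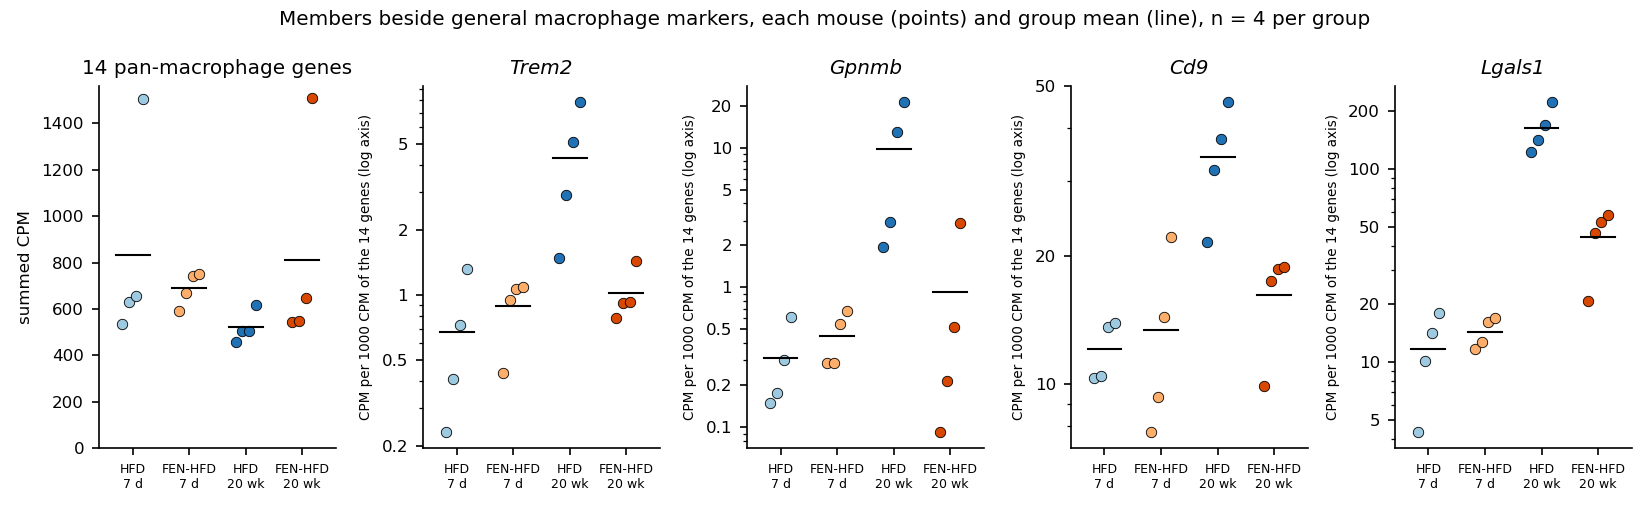
Summed level of 14 general macrophage genes (left, CPM) and 4 members divided by that sum (CPM per 1000 CPM of the 14 genes, log axes), for each mouse (points) and as group mean (line), 4 mice per group. Mice 143 and 29 are the high points of the left panel, and the HFD 20-week mice lie above all 12 other mice for Trem2 and Lgals1.

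Of 24 further genes of the lipid-associated macrophage programme, 23 passed the filter on low counts. Those that moved with fenretinide at 20 weeks were Cd36, the fatty acid translocase, and Plin2, a lipid droplet coat protein, both lower. Cd36 was 320 ± 116 CPM on the HFD and 126 ± 13.5 CPM on FEN-HFD (SD, n = 4), a log2 fold change of -1.35 (edgeR adjusted p = 0.0255), and Plin2 fell by 1.04 on the log2 scale (edgeR adjusted p = 0.0335). Without mouse 29 only Plin2 was called. Lipa, the lysosomal acid lipase, was lower in all 4 FEN-HFD mice and missed the threshold (log2 fold change of -0.63, edgeR adjusted p = 0.0541). Hepatocytes also express these genes, and their source was not tested. Between 7 days and 20 weeks on the HFD 6 of the 23 rose and 1 fell, with Cd36 (2.49), Plin2 (1.37), Fabp4 (1.26) and Lipa (0.87) at the smallest p-values, and 4 rose and 1 fell without mouse 143.

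The signalling partners of TREM2 were also examined. Of 12 genes, among them the adaptor Tyrobp, the kinase Syk, the ligand Apoe and the proteases Adam10 and Adam17 that can shed the receptor, edgeR called 0 in either 20-week comparison. With fenretinide at 20 weeks 1 was higher and 2 were lower at an unadjusted p under 0.05, and none was between 7 days and 20 weeks on the HFD. Tyrobp was 13.7 to 23.3 CPM on the HFD at 20 weeks and 17.9 to 59.0 CPM on FEN-HFD, with the highest value in mouse 29. Apoe, which hepatocytes make in large amounts, was 19595 to 22799 CPM and 13268 to 16621 CPM, lower in all 4 FEN-HFD mice (log2 fold change of -0.49, edgeR adjusted p = 0.0954).

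Markers of other cells moved in places beside the members. Of 10 Kupffer cell genes, 1 (Marco, 2.26) was higher and 1 (Id3, -0.80) lower with fenretinide at 20 weeks, and 2 (Vsig4 and Clec4f) were lower at 20 weeks on the HFD. The Kupffer sum was 451 to 576 CPM on the HFD and 559 to 1073 CPM on FEN-HFD at 20 weeks, against 584 to 1016 CPM on the HFD at 7 days. The hepatocyte sum was 67490 to 78574 CPM on the HFD and 52466 to 64788 CPM on FEN-HFD at 20 weeks, without overlap. Of 10 stellate cell genes, which mark cells that also express Lgals1, Lrat was higher and Lum lower with fenretinide at 20 weeks (0.75 and -1.39), and 0 were called between 20 weeks and 7 days on the HFD, with 4 of them higher before adjustment (p under 0.05). Their sum was 514 to 683 CPM on the HFD at 7 days, 571 to 915 CPM on the HFD at 20 weeks and 515 to 766 CPM on FEN-HFD at 20 weeks, and no stellate gene had 0 counts in every mouse of a group. The 766 CPM was that of mouse 29, and the other 3 FEN-HFD mice, at 515 to 568 CPM, were below all 4 HFD mice of 20 weeks, the lowest of which had 571 CPM. For Lgals1 all 4 FEN-HFD mice were below the HFD mice. In mouse 29 Lgals1 was 31.3 CPM and the stellate sum lay within the HFD range. The stellate sums of HFD 7-day mice covered those of the 3 FEN-HFD mice, and the Lgals1 levels of these mice did not overlap. Without mouse 29, 8 of the 10 stellate genes had negative log2 fold changes with fenretinide, with a median of -0.54 against -0.40 with it. The part of stellate cells in the Lgals1 values was not tested.

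In FEN-HFD mice at 20 weeks edgeR called, relative to the HFD, 0 of 5 monocyte, 5 dendritic cell, 6 bile duct, 8 endothelial, 3 mesothelial, 5 lymphocyte and 7 hepatocyte genes that passed the filter. At an unadjusted p under 0.05 these held 3 lower bile duct genes and 1 higher and 2 lower hepatocyte genes, and the other lists had 0. Without mouse 29, Alb was called lower. On the HFD from 7 days to 20 weeks 1 endothelial gene (Fabp4, also among the lipid genes) was higher, and 1 dendritic cell gene (Xcr1), 1 lymphocyte gene (Cd4) and 2 hepatocyte genes (Cps1 and Apoa1) were lower, of which Xcr1 was not called without mouse 143. None of the 6 monocyte, 6 bile duct or 4 mesothelial genes was called there, with 1 monocyte gene lower at an unadjusted p under 0.05. The 1 adipocyte gene tested, Cfd, was higher in both comparisons (2.81 and 4.16), and neither call held without mouse 29 (2.43) or mouse 143 (3.79), respectively. Its level, 55.0 to 144 CPM on FEN-HFD against 6.05 to 24.3 CPM on the HFD at 20 weeks, did not go with Adipoq, which had 0 counts in all 4 FEN-HFD mice.

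Per kilobase of transcript, the level at which genes can be compared, the members spanned a wide range. On the HFD at 20 weeks Lgals1 stood first with 110 ± 43.9 CPM per kilobase, followed by Spp1 with 50.1 ± 34.3 and Cd9 with 14.8 ± 6.14 (SD, n = 4), where the ranges of Lgals1 and Spp1 over the 4 mice overlapped. Fabp5, Lgals3 and Lpl lay between 7.39 and 9.31 CPM per kilobase and did not differ beyond their SD. Mmp12 with 2.45 ± 2.68, Trem2 with 2.19 ± 1.66, Gpnmb with 1.48 ± 1.52 and Itgax with 0.991 ± 0.684 were lowest and also did not differ beyond their SD. At 7 days on the HFD Fabp5 with 26.3 ± 19.5 and Spp1 with 25.6 ± 2.11 came first, and Gpnmb with 0.0610 ± 0.0327 last.

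The genes with the most similar pattern over the 16 libraries were found for 4 members, by the root-mean-square difference between log2 CPM centred on each gene's mean, among the 12009 genes that averaged 1 CPM or more. For Gpnmb the closest was Mmp12, itself a member, at a difference of 0.56, followed by Gprc5b and Ly6d at 1.02 each. Gpnmb itself varied around its mean by 1.93 on this scale. For Trem2 they were Mvd, an enzyme of cholesterol synthesis, at 0.51, Tnc, the matrix protein tenascin C, at 0.52, and Ttc39a at 0.54, beside 1.07 for Trem2 itself. For Cd9 they were Prkca, Klf6 and Slc4a4 at 0.22 to 0.26, beside 0.58, and for Lgals3 Cyp4f18, Myo1f and Myof at 0.26 to 0.29, beside 0.71. Myo1f, an unconventional myosin of leukocytes, reached at most 14.9 CPM on the HFD and 8.66 CPM on FEN-HFD at 7 days, and 12.7 and 25.8 CPM at 20 weeks. The 16 points share their libraries and so also each mouse's macrophage content and depth.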

How the data were processed

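The file holds raw read counts per gene as deposited by the authors, who trimmed reads with FASTQ Toolkit (version 2.0.0), aligned them to mm10 with STAR (version 2.0) and compared groups pairwise with DESeq2 (version 1.6). RNA from whole liver had been depleted of ribosomal RNA and sequenced in pairs on a NextSeq 500. The counting program, its strand setting and its annotation were not given in the sources used here.

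Counts were tested with edgeR 4.0.16 in R 4.3.3, with filterByExpr, TMM factors and a robust quasi-likelihood fit of the 8 libraries of each comparison. The difference between the effects at both times was fitted to all 16 libraries. P-values were adjusted over all genes tested (Benjamini-Hochberg, threshold 0.05). Alternatives were DESeq2 1.42.0, limma-voom (limma 3.58.1) with quality weights, RLE factors, no filter, at least 10 counts in every library, 1 fit of all libraries, a test of a change over 1.5-fold, removal of Rn45s and Lars2, and leaving out each mouse. Leaving out mice 29 and 143 together, or either of them for the other gene lists, was added after the data were seen. The scripts were tested on simulated data. Lengths are those of the longest principal transcript in GENCODE M21.

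All 10 members were named, from each other list the 4 genes with the smallest p in each of 2 comparisons (fenretinide at 20 weeks, and time on the HFD), and for 4 members the 3 genes of most similar pattern. Alb, Krt19, Tyrobp, Csf1r, Adipoq, Plin1, Lep and Retn were named after their values were seen, where this rule did not name them. The members and gene lists were chosen with earlier results of these data known. Adgre1 and Chil3 are listed in the file under older symbols.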

Additional observations from a re-analysis of the deposited data

Results flagged for a closer look

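In 7 of 40 groups of 4 mice, 1 mouse lay further from the other 3 than Dixon's test allows at the 95% level, which chance gives in about 1 in 20 groups. FEN-HFD 20-week mouse 29 accounted for 6 of them, with 2.18 CPM of Trem2, 4.37 CPM of Gpnmb, 5.51 CPM of Mmp12, 9.05 CPM of Itgax, 31.1 CPM of Lgals3 and 43.1 CPM of Lpl, each above the other 3 mice of its group. The remaining one was HFD 7-day mouse 143, with 19.2 CPM of Lgals3. The 40 groups share 16 libraries, so these values are not independent.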

How the results depend on the processing

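Of 836 values of members under alternatives, 744 kept their direction and side of the threshold, 23 lost a call, 11 gained one and 58 turned direction. With fenretinide at 20 weeks 1 member was called, and 0 in the test of a change over 1.5-fold. With time on the HFD 3 were called, against 5 by DESeq2 and 1 each by limma-voom, without a filter, with at least 10 counts in every library and for a change over 1.5-fold. With time on FEN-HFD 1 was called, and 2 by DESeq2. For the difference between the effects of fenretinide 0 were called, and 1 each by DESeq2 and limma-voom. Leaving out 1 mouse gave 0 to 1, 1 to 4, 1 to 2 and 0 to 1 in the same order. At 7 days all alternatives gave 0. The share of all genes called also changed between alternatives. It was 3.21% with fenretinide at 20 weeks without mouse 29, and 7.03% with time on the HFD without mouse 143. For the other alternatives it is not given here, so their counts do not set the members apart from other genes. The causes were not tested.

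Directions turned as follows, in log2. Under DESeq2 Lgals3 was 0.027 with fenretinide at 20 weeks and 0.032 for the difference of effects. Under limma-voom Itgax was 0.25, Lpl 0.0067 and Lgals3 0.50 with fenretinide at 7 days, Trem2 -0.41, Spp1 -0.030, Itgax -0.078 and Lgals3 -0.27 with time on FEN-HFD, and Itgax -1.01 for the difference of effects. The latter was 0.0035 for Lgals3 without Rn45s and Lars2 and -1.29 for Itgax without mice 29 and 143.

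With 1 mouse left out, values with fenretinide at 20 weeks ran from -0.60 to 0.26 for Spp1, -1.05 to 0.38 for Itgax, -0.89 to 0.20 for Lpl and -0.79 to 0.41 for Lgals3. At 7 days they ran from -0.37 to 0.22 for Cd9, -0.54 to 0.23 for Itgax, -0.35 to 0.026 for Lpl and -0.22 to 0.64 for Lgals3. With time on the HFD Lpl ran from -0.45 to 0.44. With time on FEN-HFD they ran from -0.28 to 0.63 for Trem2, -0.14 to 0.24 for Spp1, -0.092 to 1.01 for Itgax, -0.56 to 0.062 for Lpl and -0.26 to 0.75 for Lgals3. For the difference of effects they ran from -0.84 to 0.25 for Fabp5, -0.78 to 0.64 for Itgax, -0.73 to 0.37 for Lpl and -0.77 to 0.42 for Lgals3.

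No paired analysis was possible because the groups share no mouse numbers. Counts under 30 per library limit Trem2, Gpnmb and Mmp12 at 7 days. On FEN-HFD at 20 weeks they also limit Trem2 in all 4 mice (10 to 21 counts). In mice 21, 22 and 24 of that group they limit Mmp12 (22, 12 and 5 counts) and Gpnmb (9, 3 and 1 counts). Counts were also under 30 for Trem2 in HFD 20-week mouse 33 (23) and Gpnmb in HFD 20-week mouse 45 (22). The same was so for Itgax in HFD 7-day mouse 146 (24).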
